A study of Homo sapiens with 6 samples.

Results

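The 10 genes described here encode enzymes that build purine and pyrimidine nucleotides from small precursors: PPAT, GART, PFAS, PAICS and ATIC of purine ring assembly, IMPDH1 and IMPDH2 of the guanine branch, and CAD, UMPS and CTPS1 of pyrimidine synthesis. They were taken by gene symbol from a table of 58978 genes, and all 10 were found and passed the expression filter. The libraries came from HT29, an established human colorectal adenocarcinoma line, which carried either a control hairpin (shCTRL, 3 libraries, labelled WT) or a hairpin that knocks down FITM2 (shFITM2, 3 libraries, labelled FITM2 knockdown). All 6 were labelled untreated and shared the same culture medium. FITM2 is a membrane protein of the endoplasmic reticulum that takes part in forming lipid droplets. The sources used here do not give the hairpin sequence, the number of hairpins, or whether a line is a clone or a pool. No label ties the replicates to separate cultures, and all p-values therefore reflect the spread among 6 libraries, which may be technical spread.

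Purine synthesis builds the ring step by step on a ribose phosphate, with nitrogen from glutamine, glycine and aspartate and carbon from folate, and ends in IMP, from which AMP and GMP are made. Pyrimidine synthesis makes the ring before the ribose phosphate is attached, gives UMP, and CTP synthase then makes CTP. Proliferating tumour cells draw on both routes for RNA and DNA, and genes of both routes are known targets of the transcription factor MYC, which binds the E-box CACGTG.

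PPAT and PAICS lie head to head on chromosome 4, with 125 bases between the gene bodies, so that the same stretch of DNA serves as promoter for both. RefSeq promoter windows (GRCh38.p14, 250 bases before to 50 after an annotated start) were found for 9 of the 10 genes. IMPDH2 had none. The windows of PAICS and ATIC are shown because both genes fell in both fits described below and both windows hold the E-box, in capitals. GART, UMPS and CTPS1 also fell in both fits, and their windows hold no E-box. Each sequence shown is written 5′ to 3′ on the gene's own strand.
PAICS, chr4:56435502-56435801, plus strand: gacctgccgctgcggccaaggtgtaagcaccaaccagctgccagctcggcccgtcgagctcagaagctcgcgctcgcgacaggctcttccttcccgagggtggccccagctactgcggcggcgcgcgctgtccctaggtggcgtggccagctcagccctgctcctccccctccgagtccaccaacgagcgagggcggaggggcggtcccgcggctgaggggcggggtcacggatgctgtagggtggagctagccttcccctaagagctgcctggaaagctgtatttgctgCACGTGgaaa
ATIC, chr2:215311809-215312108, plus strand: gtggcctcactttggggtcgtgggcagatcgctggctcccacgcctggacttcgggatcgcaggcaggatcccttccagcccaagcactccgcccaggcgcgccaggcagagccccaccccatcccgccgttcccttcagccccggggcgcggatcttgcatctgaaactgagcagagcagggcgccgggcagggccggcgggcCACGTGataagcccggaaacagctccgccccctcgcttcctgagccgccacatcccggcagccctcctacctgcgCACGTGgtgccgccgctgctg
The PPAT window (minus strand) shares 236 bases with that of PAICS and holds the same single E-box, at 56435792 to 56435797, which begins 40 bases after the PAICS start and 182 bases before the PPAT start. ATIC has an E-box that begins 46 bases before its start and another that begins 29 bases after it. CACGTG reads the same on both strands and was found in 3 of the 9 windows, against 7.26% of all 35116 windows in the RefSeq table. PPAT and PAICS count the same site. No CACGTG lies in the windows used for GART, PFAS, IMPDH1, CAD, UMPS and CTPS1, which says only that these letters are not in those 300 bases. GART and PAICS had 3 windows each and CTPS1 had 2, of which only the window nearest the gene's 5′ end was used. The share of all windows keeps every window of a gene. The start used lay 242 bases from that end for ATIC, 270 for IMPDH1, 361 for CTPS1, 599 for GART and 1671 for PFAS. For the other genes with a window it lay at most 86 bases away. The ATIC gene of the count table begins at 215311817, so both of its E-boxes lie inside that gene. Their distances above are counted from the RefSeq start.

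Library depth ran from 16964075 to 18855731 counts, and a single member had 555 to 10565 reads in a library. The targeted gene FITM2 had 4.82, 5.97 and 4.95 CPM (counts scaled to library size) in shFITM2, all below its 13.2, 10.5 and 10.4 CPM in shCTRL (log2 fold change −1.12, adjusted p = 0.000242, edgeR). Intestinal epithelial markers were high (EPCAM 538 to 651 CPM in all 6 libraries), except the homeobox genes CDX1 and CDX2, at 0.229 to 1.95 CPM. Of 13 markers of blood, stromal and endothelial cells, COL1A2 and PDGFRB had no reads, 10 stayed at or under 2.52 CPM, and LYZ, which secretory epithelial cells also make, stood at 764 to 912 CPM. The fold changes of all genes followed the GC content of their transcripts: cut into 10 equal bins by GC, their median log2 fold change ran from −0.47 in the lowest bin to 0.70 in the highest. The library of shCTRL replicate 3 stood apart from the other shCTRL libraries in this respect, with a slope of −0.065 log2 units per 10 percentage points of GC against −0.27 and −0.34, where the shFITM2 libraries had 0.18 to 0.26. Each result is therefore given from a fit on group alone and from a fit with an offset that removes the GC trend of each library. A true change in the cells that runs with GC content would be taken out with it, and what lies behind the trend was not tested.

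Of the 5 genes of purine ring assembly among the 10, PPAT, PAICS, ATIC and GART were called lower in the FITM2 knockdown in both fits. PFAS was called lower with the GC offset alone. Of the 10 genes, 6 were called lower in the group fit and 1, IMPDH1, higher, against 24.5% and 24.2% of all 14809 tested genes called lower and higher (48.7% in either direction). With the GC offset all 10 were called lower and 0 higher by edgeR (also 0 higher at an unadjusted p under 0.05), against 17.4% and 11.8% of 14635 tested genes (29.2% in either direction). IMPDH1 changed direction between the fits, and PFAS, IMPDH2 and CAD were called lower with the offset alone, as were 5.54% of all genes. The other 6 were lower in both fits, as were 10% of all genes. The median log2 fold change of the 10 genes was −0.29 in the group fit and −0.37 with the offset, where that of all tested genes was −0.0002 and −0.027. In this bulk RNA, fewer cells that express a gene and less of its RNA per cell cannot be told apart.

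**Figure D1:**
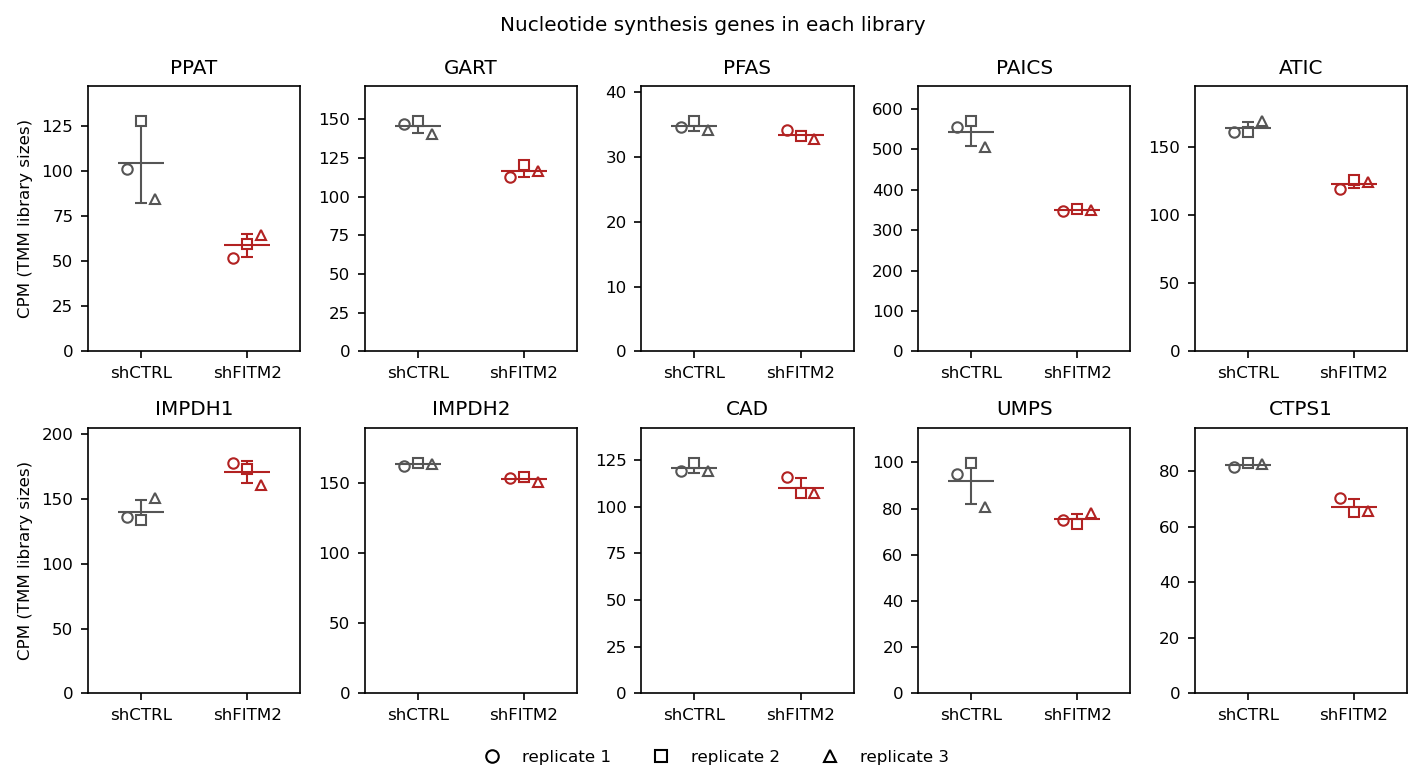
Each panel plots 1 gene, with CPM on a linear axis from 0, the 3 shCTRL libraries in grey and the 3 shFITM2 libraries in red, marker shape for the replicate number, and the horizontal line and bars for mean and SD. The PAICS libraries of shFITM2 sit between 346 and 352 CPM, below all shCTRL libraries at 505 to 571, and IMPDH1 is the one panel where the shFITM2 libraries are all higher.

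Before any GC correction, every shFITM2 library was below every shCTRL library for 9 of the 10 genes and above for IMPDH1. Across all tested genes 29.9% were separated in the lower and 29.1% in the higher direction. Summed over the 10 genes, the libraries held 1591, 1649 and 1529 CPM in shCTRL and 1256, 1265 and 1252 CPM in shFITM2. PAICS makes up a large part of that sum. Without it the sums ran from 1024 to 1079 CPM in shCTRL and from 901 to 913 CPM in shFITM2, and the groups still did not overlap.

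Per kilobase of the gene length in the table, the level in shCTRL was highest for PAICS (72.2 ± 4.56 CPM per kb, SD, n = 3), followed by IMPDH2 (58.8 ± 0.375), ATIC (41.6 ± 1.24), IMPDH1 (38.3 ± 2.46), PPAT (19.2 ± 4.06), GART (18.8 ± 0.558), CAD (14.3 ± 0.3), UMPS (12.1 ± 1.32), CTPS1 (7.15 ± 0.0646) and PFAS (5.37 ± 0.115). The ranges of neighbours overlapped for ATIC with IMPDH1 and for PPAT with GART, and these pairs are not ordered beyond their spread. In shFITM2, IMPDH2 stood at 55.0 ± 0.714 CPM per kb, IMPDH1 at 46.6 ± 2.38 and PAICS at 46.5 ± 0.399. This order depended on the scale: with GC-adjusted CPM over the same length, IMPDH2 had 51.9 ± 0.585 in shFITM2, PAICS 51.3 ± 0.757 and IMPDH1 37.0 ± 0.567 CPM per kb. How that gene length was defined is not stated, and by the length of a single coding transcript IMPDH2 came first in both groups (99.3 CPM per kb in shCTRL and 92.9 in shFITM2).

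PPAT (ENSG00000128059, chromosome 4, 56393362 to 56435615, minus strand, GRCh38) encodes the amidotransferase of the committed step of purine synthesis. It had 101.5, 128.2 and 84.4 CPM in shCTRL and 52.0, 59.9 and 64.9 CPM in shFITM2. The groups did not overlap, and the shCTRL libraries spread more than for any other of the 10 genes relative to their mean. The shFITM2 mean was 56.3% of that of shCTRL, and the group fit gave −0.83 ± 0.152 as log2 fold change with its SE (adjusted p = 0.00262, edgeR). PPAT is the member lowest in GC (37.9%), and with the offset its log2 fold change was −0.40 ± 0.0955 (adjusted p = 0.0108).

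PAICS (ENSG00000128050, chromosome 4, 56435741 to 56464579, plus strand), which shares the promoter region with PPAT, encodes the enzyme for carboxylation of the ring intermediate and its coupling to aspartate. It had 554, 571 and 505 CPM in shCTRL and 346, 352 and 351 CPM in shFITM2. The shFITM2 libraries agreed within a few CPM and lay far below the lowest control. PAICS thus had a log2 fold change of −0.64 ± 0.065 in the group fit (adjusted p = 5.53e-05, edgeR), and −0.36 ± 0.0417 with the offset (adjusted p = 1.6e-05).

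The ratio of PPAT to PAICS did not separate the groups. The log2 ratio of their CPM was −2.45, −2.15 and −2.58 in shCTRL and −2.74, −2.55 and −2.43 in shFITM2. Its mean difference between groups was −0.18 (exact two-sided permutation test, p = 0.5, adjusted over 3 ratios 0.5), where 3 against 3 libraries cannot give a p below 0.1. It ranged from −0.060 without shCTRL replicate 2 to −0.27 without shCTRL replicate 3, and was −0.10 without shFITM2 replicate 1. Such a p does not show that the genes changed alike. With the GC offset subtracted the difference was −0.033 (exact permutation p = 0.9, adjusted over 3 ratios 0.9).

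GART (ENSG00000159131, chromosome 21, 33503931 to 33543491, minus strand), whose protein carries 3 activities of the early ring steps, had 146.8, 149.1 and 140.7 CPM in shCTRL and 112.9, 120.7 and 116.7 CPM in shFITM2. Both groups were tight and did not overlap. GART had −0.32 ± 0.0662 in the group fit (adjusted p = 0.00233, edgeR), and −0.22 ± 0.0485 with the offset (adjusted p = 0.0033). GART overlaps 874 bases of SON on the opposite strand, whose reads were 224% of those of GART, and reads there may be included.

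ATIC (ENSG00000138363, chromosome 2, 215311817 to 215349773, plus strand) encodes the bifunctional enzyme that closes the ring to give IMP. It had 160.4, 160.9 and 169.1 CPM in shCTRL and 118.9, 125.5 and 124.3 CPM in shFITM2. The highest shFITM2 library lay well below the lowest control. ATIC had a log2 fold change of −0.41 ± 0.065 in the group fit (adjusted p = 0.000465, edgeR) and −0.48 ± 0.0484 with the offset (adjusted p = 3.67e-06). When the GC content was averaged over the coding transcripts of each gene instead of taken from 1 transcript, ATIC had −0.30 (adjusted p = 0.000521).

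PFAS (ENSG00000178921, chromosome 17, 8247618 to 8270491, plus strand), the glutamine-dependent enzyme between steps of GART, barely differed in CPM. It had 34.55, 35.59 and 34.15 CPM in shCTRL and 34.09, 33.24 and 32.68 CPM in shFITM2, with the lowest control next to the highest knockdown library. The group fit did not call PFAS (−0.060 ± 0.0816, adjusted p = 0.566, edgeR). At its GC content of 58.2% the trend of the libraries ran upward by 0.45 log2 units, and with the offset PFAS had −0.52 ± 0.0854 (adjusted p = 0.00031). PFAS shares 478 bases with CTC1 on the opposite strand, which had 70.4% as many reads.

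**Figure D2:**
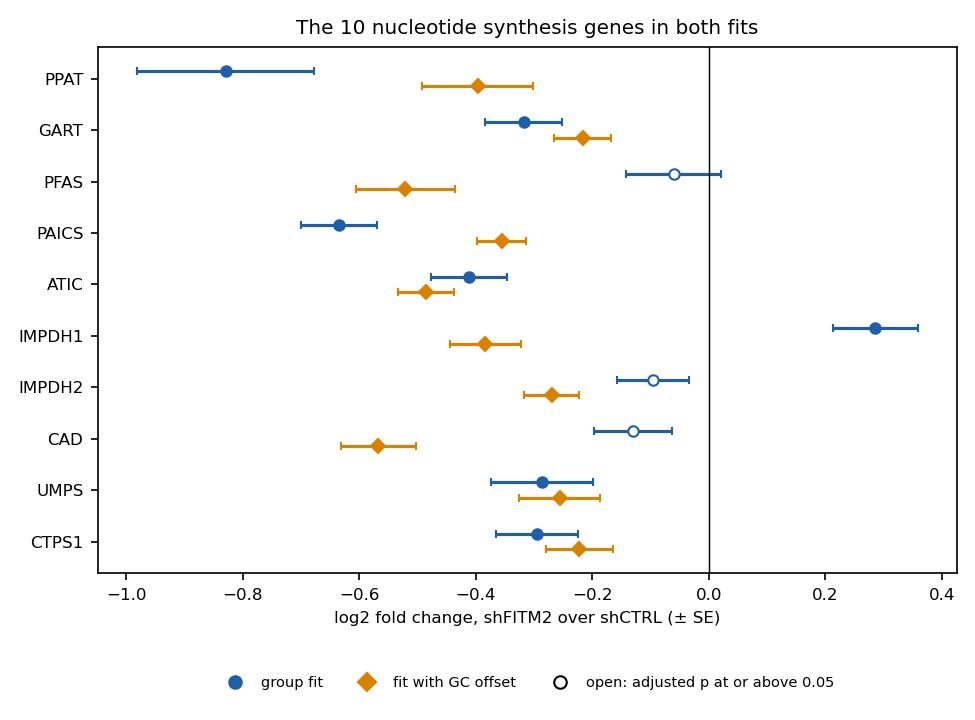
Log2 fold change of shFITM2 over shCTRL with its SE (horizontal axis) for the 10 genes in the group fit (blue circles) and the fit with the GC offset (orange diamonds), with open symbols for an adjusted p at or above 0.05. With the offset all 10 lie between −0.57 and −0.22, while the group fit spreads from −0.83 for PPAT to 0.29 for IMPDH1.

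The guanine branch starts with IMP dehydrogenase, the rate-limiting enzyme of GTP synthesis, which the paralogs IMPDH1 and IMPDH2 encode. IMPDH1 (ENSG00000106348, chromosome 7, 128392277 to 128410252, minus strand) had 135.8, 134.1 and 150.5 CPM in shCTRL and 178.1, 173.2 and 161.1 CPM in shFITM2. All shFITM2 libraries were higher, and shCTRL replicate 3 was the control nearest to them. The group fit called IMPDH1 higher (log2 fold change 0.29 ± 0.0731, adjusted p = 0.0073, edgeR), and the fit with the offset called it lower (−0.38 ± 0.0612, adjusted p = 0.000284). IMPDH1 has the highest GC content of the 10 (62.8%), where the trend of the libraries amounted to 0.66 log2 units. Of the genes tested in both fits, at any GC content, 1.82% were called higher in the group fit and lower with the offset. The share among genes as rich in GC is not given. In the lists below, TK1 (62.8% GC) and SLC1A5 (61.3% GC) changed call in the same way. Their log2 fold changes went from 0.30 to −0.37 and from 0.28 to −0.33.

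IMPDH2 (ENSG00000178035, chromosome 3, 49024325 to 49029408, minus strand), the isoform usually raised in proliferating cells, had 162.1, 164.2 and 163.0 CPM in shCTRL and 153.1, 154.3 and 150.5 CPM in shFITM2. The groups were separated by a small gap. The group fit did not call it (log2 fold change −0.10 ± 0.0614, adjusted p = 0.217, edgeR), and with the offset it was lower (−0.27 ± 0.0471, adjusted p = 0.000518).

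The balance of the paralogs in CPM moved towards IMPDH1. The log2 ratio of IMPDH1 to IMPDH2, not corrected for length, was −0.26, −0.29 and −0.12 in shCTRL and 0.22, 0.17 and 0.10 in shFITM2. The groups did not overlap, with a difference of 0.38 (exact two-sided permutation test, p = 0.1, the smallest 3 against 3 libraries allow; adjusted over 3 ratios 0.15). With the GC offset subtracted the difference was −0.11 and the groups overlapped (exact permutation p = 0.2, adjusted over 3 ratios 0.3). The direction of this ratio thus depended on the GC term. None of the 16 processed pseudogenes named after IMPDH1, PAICS and PPAT had more than 76 reads over the 6 libraries together.

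**Figure D3:**
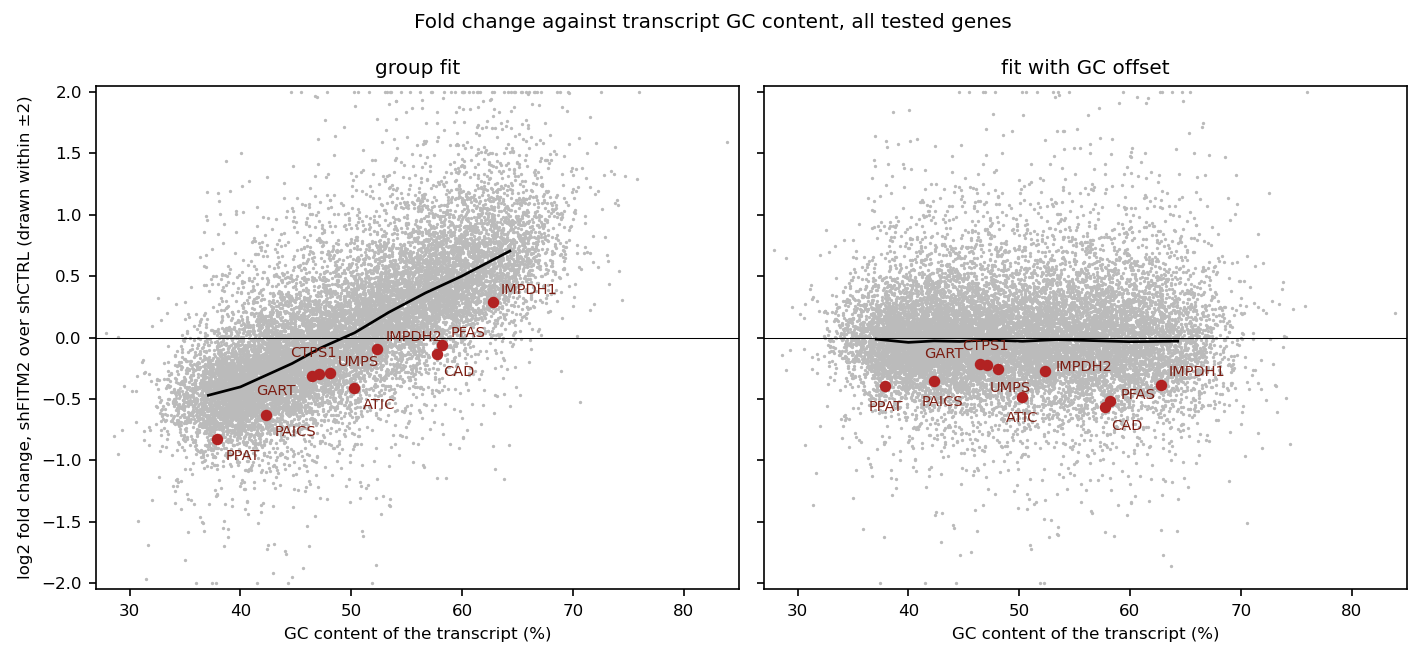
Log2 fold change (vertical axis, drawn within ±2) against transcript GC content in percent for all tested genes with a GC value (grey), the median of each of 10 GC bins (black line) and the 10 genes (red), in the group fit (left) and with the GC offset (right). In the left panel the genes run from PPAT at 37.9% GC to IMPDH1 at 62.8% and all 10 lie below the line.

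In the group fit, all 10 genes were below the median log2 fold change of their GC bin. By definition, as many genes of a bin lie below its median as above it. The offset fit takes the same trend out of the same counts, so this is not a separate result. IMPDH1, at 0.29, stood in a bin with a median of 0.70. CAD, at −0.13, and PFAS, at −0.060, shared a bin with a median of 0.36. PPAT, at −0.83, stood in a bin with a median of −0.47. After GC adjustment every shFITM2 library was below every shCTRL library for all 10 genes, as for 24.5% of all genes tested in that fit.

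Among the genes of pyrimidine synthesis, UMPS and CTPS1 were called lower in both fits and CAD with the offset alone. CAD (ENSG00000084774, chromosome 2, 27217390 to 27243943, plus strand) encodes the multifunctional protein of the opening steps, including the regulated carbamoyl phosphate synthetase. It had 119.3, 123.6 and 119.2 CPM in shCTRL and 115.9, 107.5 and 107.4 CPM in shFITM2. The shFITM2 libraries were lower by a margin close to their own spread. CAD had −0.13 ± 0.0676 on the log2 scale (adjusted p = 0.131, edgeR) in the group fit and −0.57 ± 0.0644 with the offset (adjusted p = 1.42e-05). Without shCTRL replicate 3 the group fit also called CAD lower (−0.15, adjusted p = 0.0319).

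UMPS (ENSG00000114491, chromosome 3, 124730366 to 124749273, plus strand), whose protein attaches the ribose phosphate and makes UMP, had 95.1, 99.9 and 80.7 CPM in shCTRL and 75.0, 73.2 and 77.9 CPM in shFITM2. The control library of replicate 3 lay close to the knockdown libraries. UMPS had a log2 fold change of −0.29 ± 0.087 in the group fit (adjusted p = 0.0175, edgeR), and −0.26 ± 0.0691 with the offset (adjusted p = 0.0111). The group fit no longer called UMPS when replicate 1 or 2 of shCTRL (adjusted p = 0.0735 and 0.055) or of shFITM2 (adjusted p = 0.0654 and 0.0793) was left out. The offset fit no longer called it when shCTRL replicate 1 (adjusted p = 0.0549) or replicate 1 or 2 of shFITM2 (adjusted p = 0.0605 and 0.0681) was left out, and gave −0.46 (adjusted p = 0.00187) with GC averaged over coding transcripts.

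CTPS1 (ENSG00000171793, chromosome 1, 40979335 to 41012565, plus strand), the CTP synthase known from proliferating lymphocytes, had 81.5, 83.0 and 82.4 CPM in shCTRL and 70.3, 65.2 and 65.8 CPM in shFITM2. The control libraries were nearly equal and all above the knockdown libraries. CTPS1 had −0.30 ± 0.0705 in the group fit (adjusted p = 0.00499, edgeR), and −0.22 ± 0.0575 with the offset (adjusted p = 0.00843). The latter call was lost when replicate 2 or 3 of shFITM2 was left out (adjusted p = 0.0577 and 0.0519).

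The log2 ratio of CTPS1 to its paralog CTPS2 was lower in the knockdown. It was 2.15, 2.18 and 2.04 in shCTRL and 1.63, 1.71 and 1.61 in shFITM2, with no overlap. The difference was −0.47 (exact two-sided permutation test, p = 0.1, the smallest possible, adjusted over 3 ratios 0.15). With the GC offset subtracted it was −0.56 (exact permutation p = 0.1, adjusted over 3 ratios 0.3). CTPS2 itself had 18.4, 18.3 and 20.0 CPM in shCTRL and 22.7, 19.9 and 21.6 CPM in shFITM2, which overlap. It was not called in the group fit (0.18, adjusted p = 0.16, edgeR) and rose with the offset (0.34, adjusted p = 0.0154), a call lost when replicate 1 of either group was left out (adjusted p = 0.0649 and 0.0946).

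The remaining 10 genes of de novo synthesis were called lower in 4 cases and higher in 0 in the group fit by edgeR. At an unadjusted p under 0.05 in that fit, 5 were lower and 0 higher. With the offset 3 were called lower and 1 higher. Across all tested genes, 24.5% were called lower and 24.2% higher in the group fit, and 17.4% and 11.8% with the offset. The same shares apply to the gene lists below. PRPS2 and PRPS1 encode synthases of phosphoribosyl pyrophosphate, the ribose donor of both routes. PRPS2 had 24.5, 30.9 and 26.8 CPM in shCTRL and 16.7, 16.1 and 15.3 CPM in shFITM2. Its log2 fold changes were −0.77 in the group fit and −0.52 with the offset (adjusted p = 0.000262 and 0.00112, edgeR). PRPS1 had −0.32 and −0.25 (adjusted p = 0.00599 and 0.00967), and PRPSAP2, which binds the synthases, −0.49 and −0.33 (adjusted p = 0.00224 and 0.015). The call with the offset was lost for PRPS1 without shFITM2 replicate 1 (adjusted p = 0.0656) and with GC averaged over coding transcripts (adjusted p = 0.0619), and for PRPSAP2 without shCTRL replicate 2 or shFITM2 replicate 3 (adjusted p = 0.0511 and 0.0766).

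GMPS, which makes GMP after the IMPDH step, had 161.1, 165.2 and 153.2 CPM in shCTRL and 111.1, 113.8 and 127.8 CPM in shFITM2. The group fit called it lower (−0.44, adjusted p = 0.00067, edgeR), and the fit with the offset did not (−0.11, adjusted p = 0.108). In the adenine branch, ADSS had −0.18 and 0.11 (adjusted p = 0.0558 and 0.111) and ADSSL1 0.52 and 0.10 (adjusted p = 0.122 and 0.818). ADSL, which does not act in that branch alone, was called in neither fit (−0.14 and 0.015, adjusted p = 0.543 and 0.962). ADSS was called lower in the group fit without shCTRL replicate 3 (adjusted p = 0.000567) and with a filter at a mean of 1 CPM (adjusted p = 0.0495), and higher with GC averaged over coding transcripts (0.16, adjusted p = 0.0251). ADSL overlaps SGSM3 and AL022238.4 on the same strand, which may keep reads from being assigned, and had 69 to 104 reads per library. DHODH, the mitochondrial enzyme between CAD and UMPS, had 0.060 and −0.15, not called in either fit (adjusted p = 0.67 and 0.316). PRPSAP1 had 0.15 and 0.13, also not called (adjusted p = 0.181 and 0.226), but was called higher in both fits without shCTRL replicate 3 (adjusted p = 0.0234 and 0.0358).

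**Figure D4:**
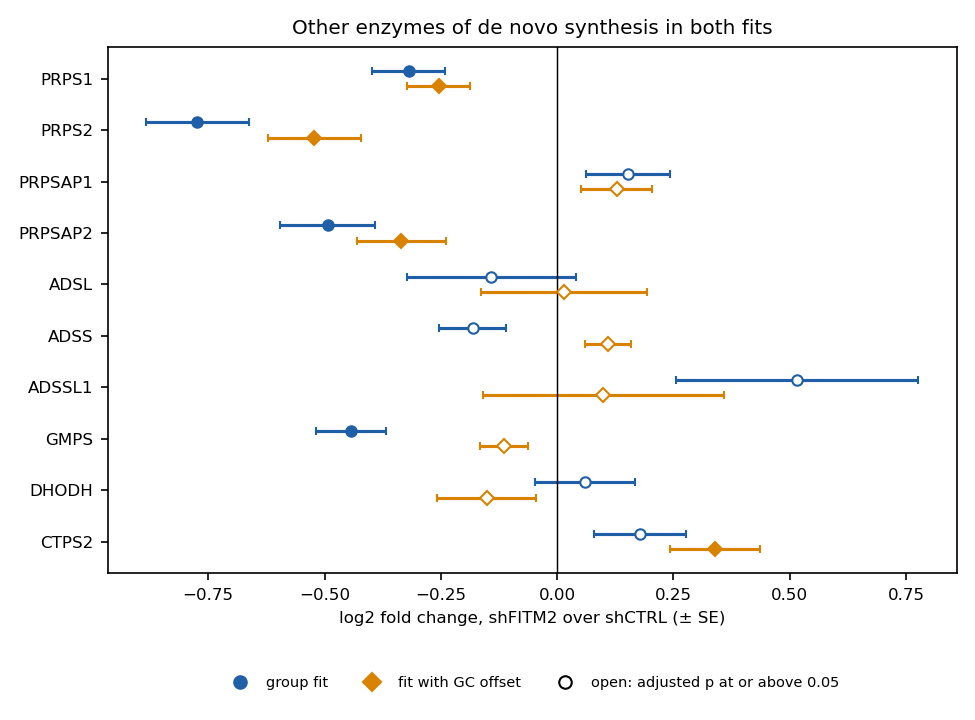
Log2 fold change of shFITM2 over shCTRL with its SE (horizontal axis) for the other 10 enzymes and subunits of de novo synthesis in the group fit (blue circles) and with the GC offset (orange diamonds), with open symbols for an adjusted p at or above 0.05. PRPS1, PRPS2 and PRPSAP2 are filled on the lower side in both fits, and ADSS lies at −0.18 and 0.11.

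Salvage enzymes, which reuse bases and nucleosides, went both ways in the group fit, with 4 called higher and 4 lower of 13, and 1 higher and 7 lower with the offset. The purine salvage gene HPRT1 had 59.8 ± 5.86 CPM in shCTRL and 38.0 ± 1.13 CPM in shFITM2 (SD, n = 3), with log2 fold changes of −0.65 and −0.31 in the 2 fits (adjusted p = 0.000213 and 0.00356, edgeR). The deoxycytidine kinase gene DCK had −0.72 and −0.32 (adjusted p = 0.00026 and 0.00241) and the adenosine kinase gene ADK −0.56 and −0.26 (adjusted p = 0.000372 and 0.00851). The ADK call with the offset was lost without shFITM2 replicate 2 and with GC averaged over coding transcripts (adjusted p = 0.0649 and 0.0676). DCK overlaps MOB1B on the same strand, which had 53.3% as many reads.

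Of 12 nucleoside mono- and diphosphate kinase genes, 2 were called higher and 4 lower, and 2 and 2 with the offset. AK4, a mitochondrial adenylate kinase, had −0.75 in the group fit and −0.49 with the offset (adjusted p = 8.19e-05 and 0.000458, edgeR). NME3 had 0.81 in the group fit (adjusted p = 0.00387) and 0.024 with the offset (adjusted p = 0.821).

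Genes of nucleotide breakdown had median log2 fold changes of 0.13 and 0.20 in the group and offset fits: of 11 tested genes of 16, 5 were called higher and 4 lower, and 4 and 2 with the offset. NT5C, a nucleotidase of the cytosol, had 6.57 ± 1.5 CPM in shCTRL and 21.4 ± 0.433 CPM in shFITM2, with log2 fold changes of 1.71 and 0.92 (adjusted p = 3.04e-05 and 4.03e-05, edgeR). It overlaps 41 bases of ARMC7 on the opposite strand, which had 199% as many reads. The cytidine deaminase gene CDA had 0.77 (adjusted p = 0.00055) and 0.35 (adjusted p = 0.0557). It was called with the offset under GC averaged over coding transcripts, without shCTRL replicate 1 and under the replicate block (adjusted p = 0.0409, 0.0333 and 0.0472), and had 0.21 without shCTRL replicate 3 (adjusted p = 0.21). NT5E, the nucleotidase of the cell surface, had −0.37 and −0.21 (adjusted p = 0.00129 and 0.00508).

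Genes that supply one-carbon units and glutamine nitrogen numbered 11 tested, of which 6 were called higher and 5 lower, against 2 and 4 with the offset. The mitochondrial folate enzymes SHMT2 and MTHFD2 had 0.41 and −0.32 in the group fit (adjusted p = 0.00153 and 0.00175, edgeR) and neither was called with the offset (0.091 and −0.0056, adjusted p = 0.612 and 0.946).

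Among 8 regulators of the routes, 2 were called higher and 1 lower in the group fit, and 0 higher and 3 lower with the offset by edgeR (at an unadjusted p under 0.05, 1 higher and 3 lower). ATF4, a stress-induced transcription factor gene, had 240 ± 57.7 CPM in shCTRL and 392 ± 12.6 CPM in shFITM2, and was called higher in the group fit (0.71, adjusted p = 0.00814, edgeR) but not with the offset (0.34, adjusted p = 0.0747). The offset fit called it without shCTRL replicate 2, without shCTRL replicate 3 and under the replicate block (adjusted p = 0.0457, 8.23e-14 and 0.0373). The smallest of these rests on 2 controls, with the control highest in ATF4 left out. Its SE was 0.0413, against 0.114 with all libraries. RPS6KB2 and RPS6KB1, kinases downstream of mTOR, had 0.63 and −0.33 in the group fit (adjusted p = 0.000829 and 0.0366) and −0.0043 and 0.092 with the offset (adjusted p = 0.974 and 0.439). The RPS6KB1 call was lost when replicate 1 or 2 of shCTRL (adjusted p = 0.0887 and 0.117) or of shFITM2 (adjusted p = 0.165 and 0.102) was left out, and under the replicate block (adjusted p = 0.0516). MYC, named after its values were seen, had 133.9, 112.7 and 171 CPM in shCTRL and 147.7, 140.8 and 137.4 CPM in shFITM2, which overlap. It was called in neither fit (0.029 and −0.21, adjusted p = 0.876 and 0.203). The 3 regulators called lower with the offset were MTOR (−0.30, adjusted p = 0.000235), RPTOR (−0.29, adjusted p = 0.0121) and MAX (−0.26, adjusted p = 0.0368). The group fit called none of them (adjusted p = 0.108, 0.221 and 0.271). Their calls under other settings are not given.

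Beside these genes, 7 of 10 intestinal epithelial markers were called higher and 1 lower in the group fit, and 3 and 2 with the offset. Their summed level, not adjusted for GC, ran from 10410 to 12590 CPM in shCTRL and from 14290 to 15100 CPM in shFITM2. Most of that sum is KRT8, with a mean of 6133 CPM in shCTRL and 8371 CPM in shFITM2. KRT8 had 0.45 and 0.23 (adjusted p = 0.000856 and 0.00429, edgeR) and KRT20 0.39 and 0.52 (adjusted p = 0.00125 and 0.000157), while KRT19 had 0.57 and −0.042 (adjusted p = 0.000605 and 0.51). EPCAM was the marker called lower in the group fit (−0.21, adjusted p = 0.0121), and it was also called lower with the offset (−0.13, adjusted p = 0.029). VIL1 was called higher in both fits (0.33 and 0.52, adjusted p = 0.00268 and 2.55e-05). The KRT8 call with the offset was lost with GC averaged over coding transcripts (0.013, adjusted p = 0.86). Of the 13 markers of other cell types, 4 were tested and 0 were called in the group fit by edgeR (also 0 at an unadjusted p under 0.05). With the offset LYZ was called higher (0.41, adjusted p = 1.08e-05), where ACTA2 had 0.44 (adjusted p = 0.603) and PECAM1 −0.33 (adjusted p = 0.606). The summed level of these 13 markers, nearly all of it LYZ, was 768 to 894 CPM in shCTRL and 880 to 916 CPM in shFITM2. The part of differentiation state or of other cells in the values of the nucleotide genes was not tested.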

How the data were processed

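RNA-seq of 3 shCTRL and 3 shFITM2 HT29 libraries was used, grouped by sample title. The authors deposited 1 table of whole-number counts of reads for each gene, not normalized. Tools listed in the submitters' processing notes are featureCounts 1.5.0-p3, HISAT2 2.0.5, StringTie 1.3.3b and DESeq2 1.16.1, with hg19 as build and no roles given. The strand setting is not given in the sources used here, although per the labels' protocols the kit keeps strand. All 58735 Ensembl genes of the table have the GRCh38 position of GENCODE release 29, so coordinates are GRCh38. The table's gene length column, a value the authors deposited with no stated definition, was used for CPM per kb.

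Groups were compared in R 4.3.3 with edgeR 4.0.16 (robust quasi-likelihood fit, group as sole term) after TMM normalization and a filter (minimum count 10, minimum total 15), with p-values adjusted by Benjamini-Hochberg across the tested genes. limma 3.58.1 served limma-voom. Genes were called at an adjusted p under 0.05. The second fit added a gene-by-library offset from a spline (6 degrees of freedom) of log2 deviations (prior count 2) on the GC content of the longest coding transcript in GENCODE (the longest of any kind for genes without one). CPM are scaled to TMM library sizes. Scripts were tested on simulated data. Replicate pairs differed by a chi-square of 2.35 to 28.6 per gene, above sampling noise, and each library counted as 1 sample. The pairs of shCTRL replicate 3 with replicates 1 and 2 had 20.2 and 28.6. The other shCTRL pair had 5.61, and the shFITM2 pairs had 2.35 to 4.36.

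Members, lists and alternatives were chosen with earlier results of these data known. Named genes are the 10 members, FITM2, the other de novo enzymes and the 3 genes with the smallest p of each other list, of which some are not reported here. EPCAM, VIL1, CDX1 and CDX2, COL1A2 and PDGFRB, TK1 and SLC1A5, and MYC, MTOR, RPTOR and MAX, were named in addition, after their values were seen. Other settings are not given for TK1, SLC1A5 and VIL1. Alternatives were DESeq2 1.42.0 size factors or its Wald test, library totals, limma-voom, other filters, GC with length, the replicate block, each library left out and, chosen after seeing the data, GC averaged over coding transcripts.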

Additional observations from a re-analysis of the deposited data

How the results depend on the processing

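For the 10 nucleotide synthesis genes, the 7 other settings of the group fit and the 3 of the GC offset fit kept every call and direction (70 of 70 and 30 of 30 values). With a library left out, 55 of 60 values kept theirs in each fit, and the exceptions are UMPS, CAD and CTPS1, given above. Without 1 library, 5 to 7 of the 10 genes were called lower in the group fit and 8 to 10 with the offset, and the count of all genes called ran from 5338 to 9008 and, with the offset, from 2806 (without shFITM2 replicate 1) to 5618, against 7205 and 4275 with all libraries. The IMPDH1 to IMPDH2 difference turned from 0.38 to −0.11 with the GC offset subtracted. Values near 0 in the offset fit that changed sign were, with GC averaged over coding transcripts, ADSL −0.024, MTHFD2 0.045, PRPSAP1 −0.020, RPS6KB2 0.0085 and SHMT2 −0.054, and, with length added, MTHFD2 0.017 and NME3 −0.017. Without 1 library their ranges were −0.083 to 0.11 for ADSL, −0.021 to 0.010 for MTHFD2, −0.022 to 0.042 for NME3, −0.066 to 0.040 for RPS6KB2 and −0.031 to 0.19 for SHMT2, and PECAM1 in the group fit ran from −0.45 to 0.0080. The cause was not tested.

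The labels give both groups replicate numbers 1 to 3, but libraries with the same number did not deviate together (correlations of −0.041, −0.0066 and −0.065). No library correlated best with its own number. Whether equal numbers mark a shared culture or batch cannot be told from these values. The replicate block called 6 of the 10 genes lower and 1 higher and 6727 genes in all, and with the GC offset 10 lower and 4181 in all. The 10 genes had at least 555 reads in each library, and ADSL and ADSSL1 had 27 to 104. How the calls depend on depth was not tested. The transcript that sets a gene's GC content may not be the one these cells express.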
